A study of Mus musculus with 12 samples.

Results

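The Hox genes of the Hoxa, Hoxb, Hoxc and Hoxd clusters were described in blood stem and progenitor cells that had regenerated the marrow after transplantation. The members were all genes whose symbol on the array was Hox, a cluster letter and a position number, with no use of measured values. This gave 33 of the 19494 named genes on the array, with 8 in Hoxa, 9 in Hoxb, 9 in Hoxc and 7 in Hoxd. Hoxa9 and Hoxb4, which are well known in blood stem cells, were not found under their symbols among the named probe sets and were not analysed here. Every member had 1 probe set.

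Each of the 12 arrays measured amplified RNA from sorted mouse cells, in 4 groups of 3 arrays. Marrow cells carrying CD45.2, from wild-type donors (Nfat5 +/+ Vav-Cre) or NFAT5-deficient donors (Nfat5 fl/fl Vav-Cre), had been transplanted into irradiated wild-type recipients carrying CD45.1. After 13 weeks, donor-derived haematopoietic stem cells (HSC, CD48-CD150+) and multipotent progenitors (MPP, CD48+CD150-) were sorted from the LSK compartment, which holds the lineage-negative, Sca-1-positive and Kit-positive cells. Every donor in both genotypes carried Vav-Cre, a recombinase driven by the Vav promoter in blood cells, and the recipients' own tissues were wild-type. The age of the mice was not given in the sources used here. Arrays are named by group and sample number. Wild-type samples carry the numbers 66, 67 and 75, and NFAT5-deficient samples 64, 70 and 76. The labels do not say whether these numbers are separate mice, so p-values measure the spread between samples, which may be partly technical.

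Hox genes encode homeodomain transcription factors that lie side by side in clusters, and their order along a cluster follows their order of use along the body axis. In blood, mainly genes of the Hoxa and Hoxb clusters are known to be active in stem and early progenitor cells and to be turned down as cells mature. Hox proteins bind DNA together with TALE homeodomain cofactors of the MEIS and PBX families, MLL complexes keep the clusters active, and Polycomb complexes silence them. NFAT5, the factor removed here, drives genes that protect cells from osmotic stress.

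Depth has no direct counterpart on these arrays, and the number of arrays limits the precision. Nfat5 itself had a log2 intensity of 9.81, 9.38 and 9.27 on the wild-type HSC arrays and 8.76, 8.34 and 7.62 on the NFAT5-deficient HSC arrays. In MPP it read 8.78, 8.85 and 8.12 in the wild-type group and 7.63, 7.73 and 8.40 in NFAT5-deficient cells. The genotypes did not overlap in HSC and overlapped in MPP, and the difference was not called in either population by limma (adjusted p = 0.772 in HSC and 0.896 in MPP). Of 9 measured HSC marker genes, 3 were called higher in HSC over both genotypes, against 0.298% of all genes. Of 6 MPP and lymphoid priming markers, 5 were called lower, against 0.313% of all genes. The lists include Slamf1, which encodes CD150, and Cd48, whose products were used for the sort. All 9 HSC markers had higher means in HSC in wild-type cells. In NFAT5-deficient cells 8 of 9 did, and Procr differed by -0.27. Wild-type HSC array 66 and NFAT5-deficient HSC array 70 lay at the opposite ends of the second principal component, at 58.12 and -42.83.

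Without detection calls, the level of genes that marrow cells hardly express was read from 1091 olfactory receptor genes. Their 95th percentile, a log2 intensity of 6.30, served as a guide to background and not as a detection call, because probe sets differ in their own background. The highest group mean lay above the guide for 16 of 33 Hox members (48.5%), against 61.7% of all genes and 7.88% of olfactory receptor genes. Above it were 6 of 8 Hoxa members (Hoxa2, Hoxa4, Hoxa5, Hoxa6, Hoxa10 and Hoxa13), 6 of 9 Hoxb members (Hoxb2, Hoxb3, Hoxb5, Hoxb6, Hoxb7 and Hoxb8), 1 of 9 Hoxc members (Hoxc9) and 3 of 7 Hoxd members (Hoxd1, Hoxd8 and Hoxd12). The other 17 members could not be told apart from background by this measure. The nearest below the guide were Hoxb1 and Hoxc13, with highest group means of 6.30 and 6.29. Hoxb6, Hoxd1 and Hoxd12 lay above the guide in wild-type HSC alone. In whole sorted populations, fewer cells expressing a gene and less RNA per cell cannot be told apart.

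**Figure D1:**
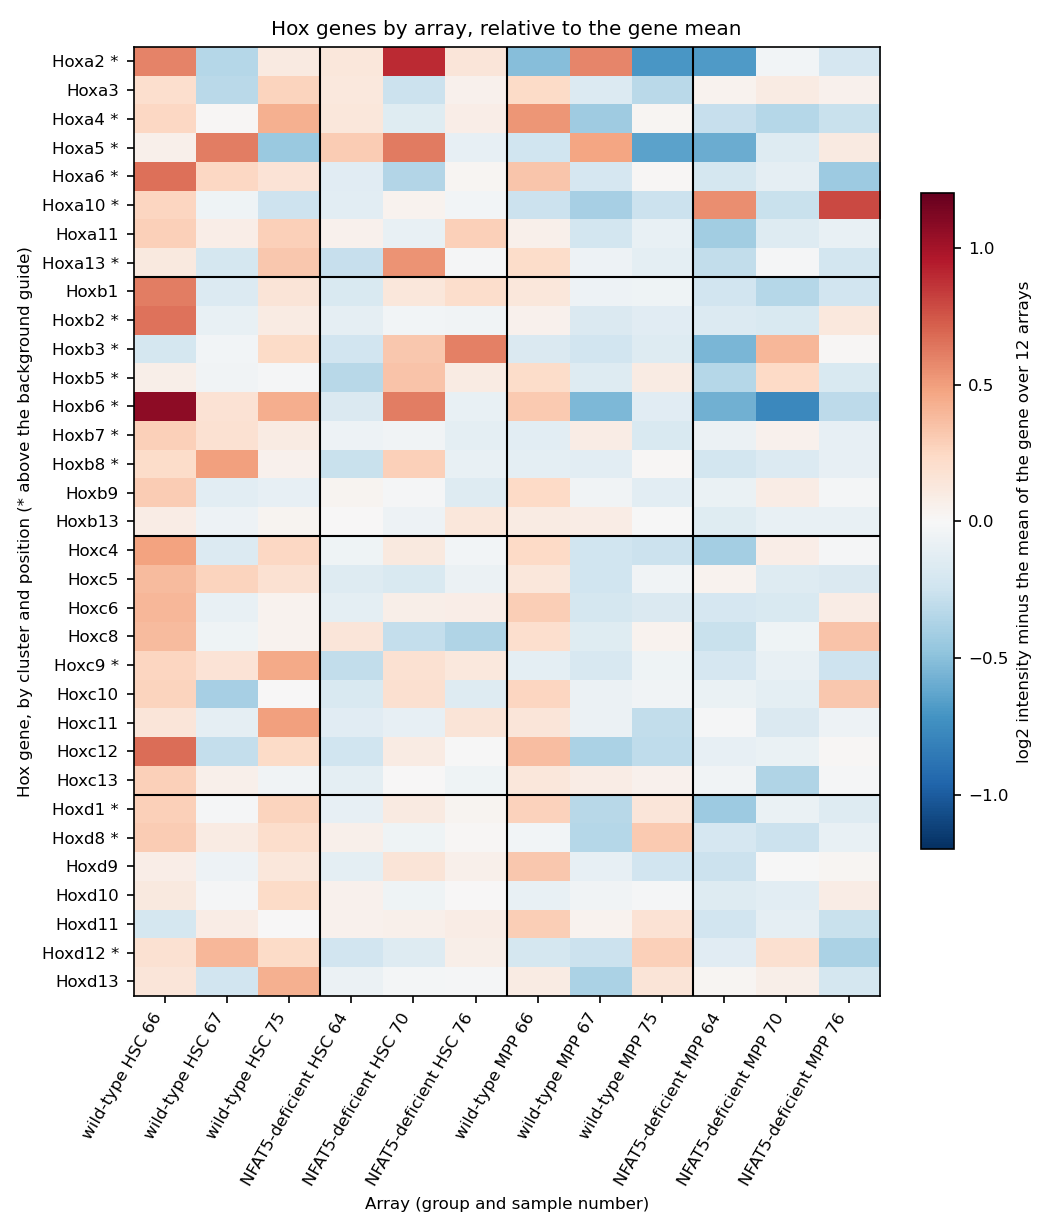
Each row is a Hox gene in cluster order and each column an array. Colour gives the log2 intensity minus the mean of that gene over the 12 arrays, and an asterisk marks the 16 genes above the background guide. Wild-type HSC array 66 holds the highest value of 14 of the 33 genes and NFAT5-deficient MPP array 64 the lowest value of 9.

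The promoter sequences of 3 members are shown here because these genes stood out in a comparison described below or hold a HOX-PBX composite motif. They were chosen after the values were seen. Each is the 250 bases before the RefSeq transcription start, on the strand of the gene, from assembly GRCm38.p6. Capitals mark a match to TGGAAA, the core bound by NFAT5, or to TGATTNAT, a composite motif of HOX and PBX proteins, both searched on both strands. TTTCCA is the first motif read from the opposite strand.
Hoxa11, chr6:52245811-52246060, minus strand: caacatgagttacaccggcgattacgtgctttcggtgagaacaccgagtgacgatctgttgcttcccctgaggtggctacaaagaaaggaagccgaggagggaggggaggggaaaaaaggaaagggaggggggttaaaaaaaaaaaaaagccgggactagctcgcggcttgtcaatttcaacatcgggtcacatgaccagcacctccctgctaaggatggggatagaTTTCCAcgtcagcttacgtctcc
Hoxd11, chr2:74679308-74679557, plus strand: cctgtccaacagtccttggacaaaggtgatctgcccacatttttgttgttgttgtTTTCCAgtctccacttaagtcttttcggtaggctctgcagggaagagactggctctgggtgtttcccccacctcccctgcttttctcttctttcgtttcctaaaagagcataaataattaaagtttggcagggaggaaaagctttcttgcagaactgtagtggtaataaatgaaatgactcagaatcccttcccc
Hoxa2, chr6:52164832-52165081, minus strand: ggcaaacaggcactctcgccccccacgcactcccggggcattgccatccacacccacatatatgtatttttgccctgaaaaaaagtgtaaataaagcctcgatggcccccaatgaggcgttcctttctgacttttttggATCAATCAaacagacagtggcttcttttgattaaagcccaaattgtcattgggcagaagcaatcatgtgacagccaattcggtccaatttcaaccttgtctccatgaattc
The RefSeq promoter table held 19 promoters for 17 of the 33 members. TGGAAA occurred in 6 of these 19 promoters (Hoxa10, Hoxa11, Hoxc4, Hoxd8, Hoxd11 and Hoxd12) and in 18.6% of all 32851 promoters of that length. The match in Hoxa11 began 23 bases before the start, and that in Hoxd11 began 195 bases before it. TGATTNAT occurred in 2 of the 19 promoters (Hoxa2 and Hoxd11) and in 2.82% of all promoters. The Hoxd11 match to TGATTNAT lay before a second RefSeq start. The promoters shown above were all among those with a match. Hoxa6, which also stood out between the genotypes, had a promoter there without a match to either motif. Hoxb6, Hoxc5 and Hoxc9 had no promoter there. The motifs were therefore not linked to the members that stood out. A match is a description of the letters and no evidence of binding.

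HSC and MPP were compared first, within each genotype and over both genotypes. No Hox member passed the test in any of these comparisons. Hoxb6 came nearest, with a mean 0.68 higher in HSC over both genotypes. Across the members the HSC means were more often the higher ones, with 29 of 33 in wild-type and 26 of 33 in NFAT5-deficient cells. Differences were small, with a median of 0.19 for wild-type and 0.11 for NFAT5-deficient cells on the log2 scale. The NFAT5-deficient median was 0.05 without MPP array 64 and 0.07 without HSC array 70.

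By limma, 0 of 33 members were called in wild-type cells at an adjusted p under 0.05, where 0.164% of all genes (32) were called. In NFAT5-deficient cells 0 of 33 members were called, against 0.21% of all genes (41). Over both genotypes, which uses all 12 arrays, 0 of 33 members were called, against 0.61% of all genes (119). At an unadjusted p under 0.05, limma gave 3 members in wild-type cells (8.9% of all genes), 2 in NFAT5-deficient cells (7.9%) and 3 over both genotypes (12.2%). The smallest adjusted p of any member was 0.431, 0.532 and 0.234 in turn.

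The share of members with a higher mean in HSC stood at 87.9% in wild-type cells, where it was 58.6% of all genes and 67.2% of olfactory receptor genes. In NFAT5-deficient cells it was 78.8% of members, 62.1% of all genes and 75.6% of olfactory receptor genes, and over both genotypes 87.9%, 63.4% and 76.6%. The median difference of the olfactory receptor genes was 0.07 for wild-type and 0.10 for NFAT5-deficient cells, so these dim genes were shifted the same way as the Hox members. With every array centred on its olfactory receptor median, the members' median was 0.15 in wild-type cells, with 27 of 33 members higher in HSC. The same centring left a median of 0.000996 and 17 of 33 members in NFAT5-deficient cells. Signs matched in both genotypes for 23 members higher in HSC, against 41.1% of all genes, and for 1 member lower in HSC (Hoxc10), and differed for 9 members.

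**Figure D2:**
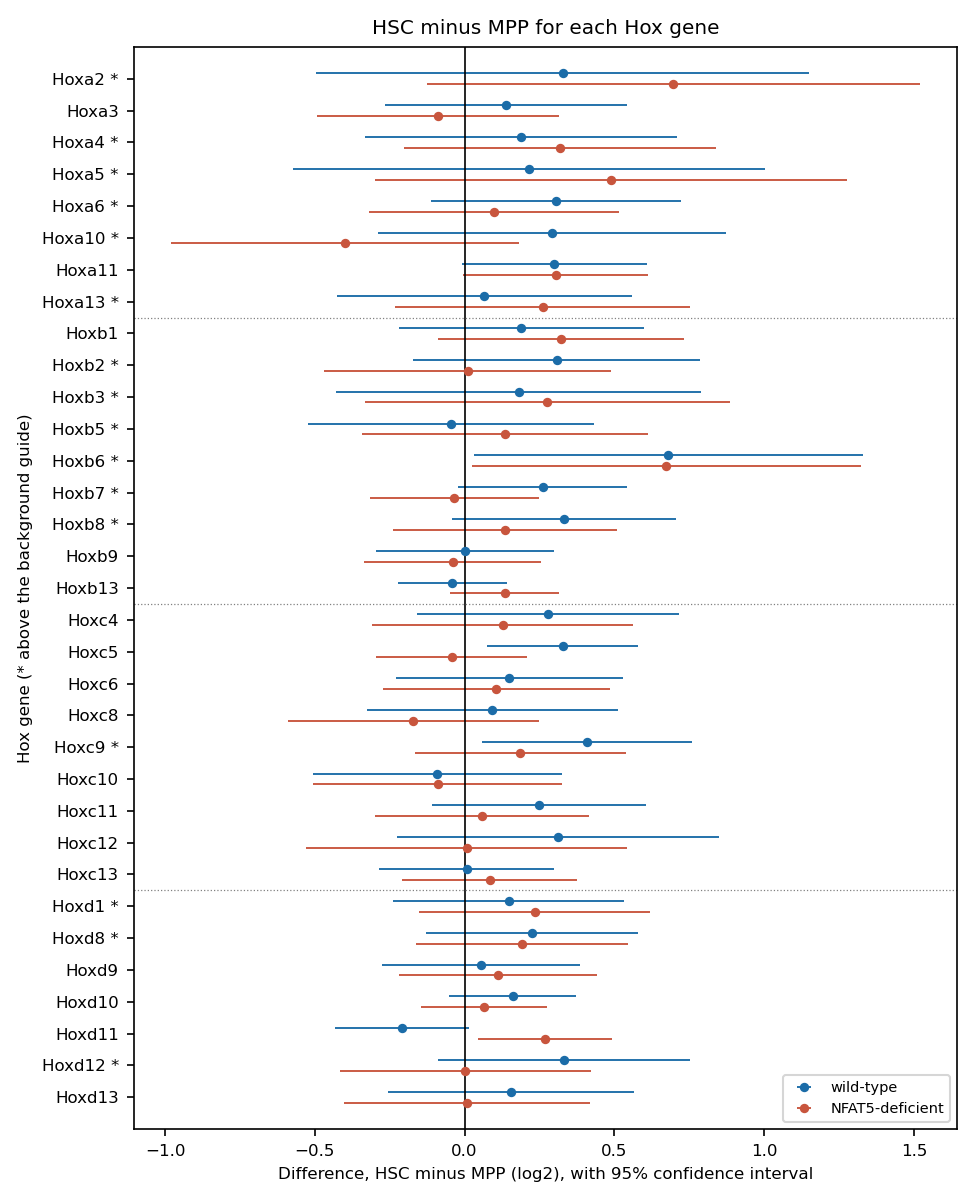
Points are the difference HSC minus MPP of each Hox gene on the log2 scale, blue in wild-type and red in NFAT5-deficient cells, with the 95% confidence interval of the fit as bars. Most points lie to the right of 0 and most intervals cross it; Hoxb6 has the largest differences that lie clear of 0 in both genotypes, at 0.68 and 0.67.

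Hoxb6, a central gene of the Hoxb cluster, read 7.01, 6.11 and 6.37 on the wild-type HSC arrays and 6.25, 5.40 and 5.80 on the wild-type MPP arrays. In NFAT5-deficient cells it read 5.76, 6.55 and 5.85 in HSC and 5.36, 5.16 and 5.62 in MPP. The populations did not overlap in NFAT5-deficient cells, while the highest wild-type MPP array lay above the lowest wild-type HSC array. The difference over both genotypes was 0.68, with a 95% confidence interval of 0.22 to 1.14 (adjusted p = 0.234, limma). Within genotypes it was 0.68 (wild-type) and 0.67 (NFAT5-deficient). The group mean of Hoxb6 lay above the background guide in wild-type HSC alone.

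Hoxa11, a posterior Hoxa gene known best from limb and reproductive tract development, was the only member whose HSC arrays all lay above the MPP arrays in both genotypes. Among all genes, 1.49% were higher in HSC without overlap in both genotypes. Its wild-type values were 6.25, 6.04 and 6.25 in HSC and 6.02, 5.74 and 5.87 in MPP. Its NFAT5-deficient values were 6.02, 5.88 and 6.25 in HSC and 5.55, 5.81 and 5.87 in MPP. The gap was narrow, since the lowest HSC array exceeded the highest MPP array by little in both genotypes, and every group mean lay below the background guide. The difference was 0.30 in each genotype and 0.30 over both (95% confidence interval 0.08 to 0.52, adjusted p = 0.264, limma).

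Hoxc9 was the only Hoxc member above the guide. It read 6.90, 6.79 and 7.09 in wild-type HSC against 6.52, 6.44 and 6.59 in wild-type MPP, without overlap. In NFAT5-deficient cells it read 6.34, 6.82 and 6.76 in HSC and 6.43, 6.55 and 6.39 in MPP, where array 64 of the HSC group lay below all MPP arrays. The difference was 0.41 in wild-type cells, 0.19 in NFAT5-deficient cells and 0.30 over both genotypes (95% confidence interval 0.05 to 0.55, adjusted p = 0.334, limma).

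Without overlap, 6 members were higher in wild-type HSC than in wild-type MPP (Hoxa10, Hoxa11, Hoxb7, Hoxb8, Hoxc5 and Hoxc9), where 7.54% of all genes were. Some gaps were very narrow. The lowest HSC and highest MPP arrays read 6.979 and 6.971 for Hoxa10, and 6.625 and 6.621 for Hoxb7. In NFAT5-deficient cells 8 members were (Hoxa2, Hoxa4, Hoxa11, Hoxb1, Hoxb6, Hoxb13, Hoxd8 and Hoxd11), where 11.5% of all genes were. No member was lower in HSC without overlap in either genotype, against 4.74% and 5.39% of all genes. An exact permutation test of 3 arrays against 3 cannot go below p = 0.1, which is what complete separation gives.

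Among the anterior genes, numbered 1 to 3, Hoxa2 had the widest difference. Its HSC values were 7.30, 6.36 and 6.81 in wild-type cells and 6.84, 7.60 and 6.85 in the NFAT5-deficient group. Its MPP values were 6.19, 7.29 and 6.01 in wild-type cells and 6.03, 6.67 and 6.51 in the NFAT5-deficient group. Wild-type MPP array 67 reached the level of the highest wild-type HSC array, so the wild-type groups overlapped while the NFAT5-deficient groups did not. The difference over both genotypes was 0.51, with a 95% confidence interval of -0.07 to 1.09. Hoxb1, at the 3′ end of its cluster and at the guide, read 6.71, 5.93 and 6.25 in wild-type HSC and 5.92, 6.24 and 6.30 in NFAT5-deficient HSC. In MPP it read 6.23, 6.04 and 6.05 (wild-type) and 5.87, 5.76 and 5.87 (NFAT5-deficient). Wild-type HSC array 66 stood above all others, and the difference HSC minus MPP was 0.26 over both genotypes.

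Hoxb3 read 6.85, 7.03 and 7.29 (wild-type HSC), 6.83, 7.39 and 7.66 (NFAT5-deficient HSC), 6.89, 6.83 and 6.91 (wild-type MPP), and 6.51, 7.46 and 7.08 (NFAT5-deficient MPP). All 4 groups overlapped. The difference HSC minus MPP was 0.23 over both genotypes (95% confidence interval -0.20 to 0.66). Hoxd1 read 6.41, 6.11 and 6.39 (wild-type HSC), 6.03, 6.23 and 6.15 (NFAT5-deficient HSC), 6.40, 5.79 and 6.27 (wild-type MPP), and 5.69, 6.04 and 5.97 (NFAT5-deficient MPP). HSC and MPP overlapped in both genotypes, with a difference of 0.19 over both. The 6 anterior members measured had differences from 0.02 to 0.51, all positive over both genotypes, including Hoxa3 at 0.02 and Hoxb2 at 0.16.

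Hoxb5 is known from reporter mice as a marker of long-term stem cells. Its arrays read 6.98, 6.87 and 6.90 in wild-type HSC, with 7.13, 6.75 and 7.01 in wild-type MPP. In NFAT5-deficient cells they read 6.58, 7.25 and 7.005 in HSC and 6.56, 7.14 and 6.73 in MPP. The populations overlapped in both genotypes. The difference over both was 0.04 with a 95% confidence interval of -0.29 to 0.38. This bounds the difference in intensity, in either direction, to well under 1 on the log2 scale. The interval applies to the intensity of the probe set and not to the amount of RNA.

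Hoxa5 varied more between arrays of a group than between groups. It read 7.25, 7.80 and 6.74 (wild-type HSC), 6.94, 7.66 and 6.55 (wild-type MPP), 7.49, 7.81 and 7.08 (NFAT5-deficient HSC), and 6.59, 7.04 and 7.29 (NFAT5-deficient MPP). Samples 66, 67 and 75 stood in the same order in wild-type HSC and MPP. The difference HSC minus MPP was 0.35 over both genotypes (95% confidence interval -0.21 to 0.91). Hoxb7 and Hoxb8, neighbours in their cluster, had differences of 0.11 and 0.23. Hoxb7 was barely separated, and in wild-type cells alone, at 6.82, 6.71 and 6.625 in HSC and 6.41, 6.621 and 6.34 in MPP. Its NFAT5-deficient arrays read 6.46, 6.49 and 6.41 in HSC and 6.46, 6.58 and 6.43 in MPP. Hoxb8 was likewise separated in wild-type cells, at 6.73, 7.002 and 6.56 in HSC and 6.39, 6.38 and 6.52 in MPP. In NFAT5-deficient cells it read 6.24, 6.79 and 6.42 in HSC and 6.29, 6.35 and 6.41 in MPP, with overlap. Whether these gaps differed between genotypes is the interaction, which was not called for any member.

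The 12 central members, numbered 4 to 8, had a median difference of 0.20 over both genotypes, with 11 of 12 positive. The 15 posterior members, numbered 9 to 13, had a median of 0.08, with 12 of 15 positive. The 6 anterior members had a median of 0.21. By cluster the medians were 0.23 in Hoxa, 0.16 in Hoxb, 0.14 in Hoxc and 0.11 in Hoxd. These medians are descriptions, and no test of a difference between clusters or positions was made. The 16 members above the guide had a median of 0.20 and the other 17 a median of 0.08. A member could pass the guide through a high HSC mean alone, as Hoxb6, Hoxd1 and Hoxd12 did in wild-type cells. These medians are therefore not independent of the guide, and no conclusion is drawn from them.

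The 13 remaining members, left over by the rule for values by array, are given by their group means. Hoxa4 had group means of 7.35 (wild-type HSC), 7.14 (NFAT5-deficient HSC), 7.16 (wild-type MPP) and 6.82 (NFAT5-deficient MPP), and a difference HSC minus MPP of 0.25 over both genotypes. Hoxa13, the last gene at the 5′ end of its cluster, had means of 6.68, 6.69, 6.62 and 6.43 in the same order, and Hoxb2 7.60, 7.32, 7.29 and 7.31. For Hoxb2, wild-type HSC array 66 read 8.04 and all other arrays lay between 7.20 and 7.51. The other 10 of these members, Hoxa3, Hoxb9, Hoxc4, Hoxc6, Hoxc8, Hoxc10, Hoxc11, Hoxc12, Hoxd9 and Hoxd13, had group means below the guide, from 4.53 to 6.12. Their differences HSC minus MPP over both genotypes ran from -0.09 in Hoxc10 to 0.20 in Hoxc4. Their genotype differences over both populations ran from -0.16 in Hoxc8 to 0.04 in Hoxa3. Hoxd10, also below the guide, had differences of 0.11 and -0.06, and overlapping groups. It read 4.70, 4.57 and 4.82 (wild-type HSC), 4.64, 4.53 and 4.59 (NFAT5-deficient HSC), 4.495, 4.55 and 4.57 (wild-type MPP), and 4.43, 4.46 and 4.68 (NFAT5-deficient MPP).

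Genotypes were compared next, as NFAT5-deficient minus wild-type within HSC, within MPP and over both populations. No Hox member passed the test. The means of most members were lower in NFAT5-deficient cells, with 26 of 33 in HSC, 26 of 33 in MPP and 28 of 33 over both. The MPP direction depended on the scaling, since 21 of 33 members were higher in NFAT5-deficient MPP once arrays were centred on their olfactory receptor median. Hoxa6 and Hoxc5 came nearest in HSC and Hoxd11 and Hoxa10 in MPP. These comparisons use the same arrays as the comparisons of HSC with MPP, so their values are not independent of those above.

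By limma, 0 of 33 members were called in HSC, where 0% of all genes were. In MPP 0 of 33 members were called, against 0.00513% of all genes, which is 1 gene. Over both populations 0 of 33 were called, again against 0% of all genes. At an unadjusted p under 0.05, limma gave 2 members in HSC (6.18% of all genes), 2 in MPP (5.35%) and 2 over both populations (7.11%). The smallest adjusted p was 0.772 in HSC, 0.868 in MPP and 0.662 over both populations.

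The median difference of the members was -0.15 in HSC, where that of all genes was -0.05 and that of olfactory receptor genes -0.06. In MPP the members' median was -0.06, against -0.07 for all genes and -0.09 for olfactory receptor genes. Lower means in NFAT5-deficient cells held for 78.8% of members in HSC (58.4% of all genes, 67.5% of olfactory receptor genes) for 78.8% in MPP (61.1% and 75.3%), and for 84.8% over both populations (62.2% and 76.6%). After centring on the olfactory receptor median, the members' median was -0.11 in HSC, with 23 of 33 lower, and 0.04 in MPP, with 12 of 33 lower. Quantile normalization gave -0.12 in HSC and -0.01 in MPP, with 24 and 17 of 33 lower. Without wild-type HSC array 66, the HSC median was -0.06, and without wild-type HSC array 67 it was -0.25. The MPP median was -0.03 without NFAT5-deficient array 64 and between -0.13 and -0.11 without NFAT5-deficient array 70 or 76 or wild-type array 67 or 75. Over both populations the median of -0.11 was -0.16 without HSC array 67 and -0.07 without MPP array 66, both of them wild-type.

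**Figure D3:**
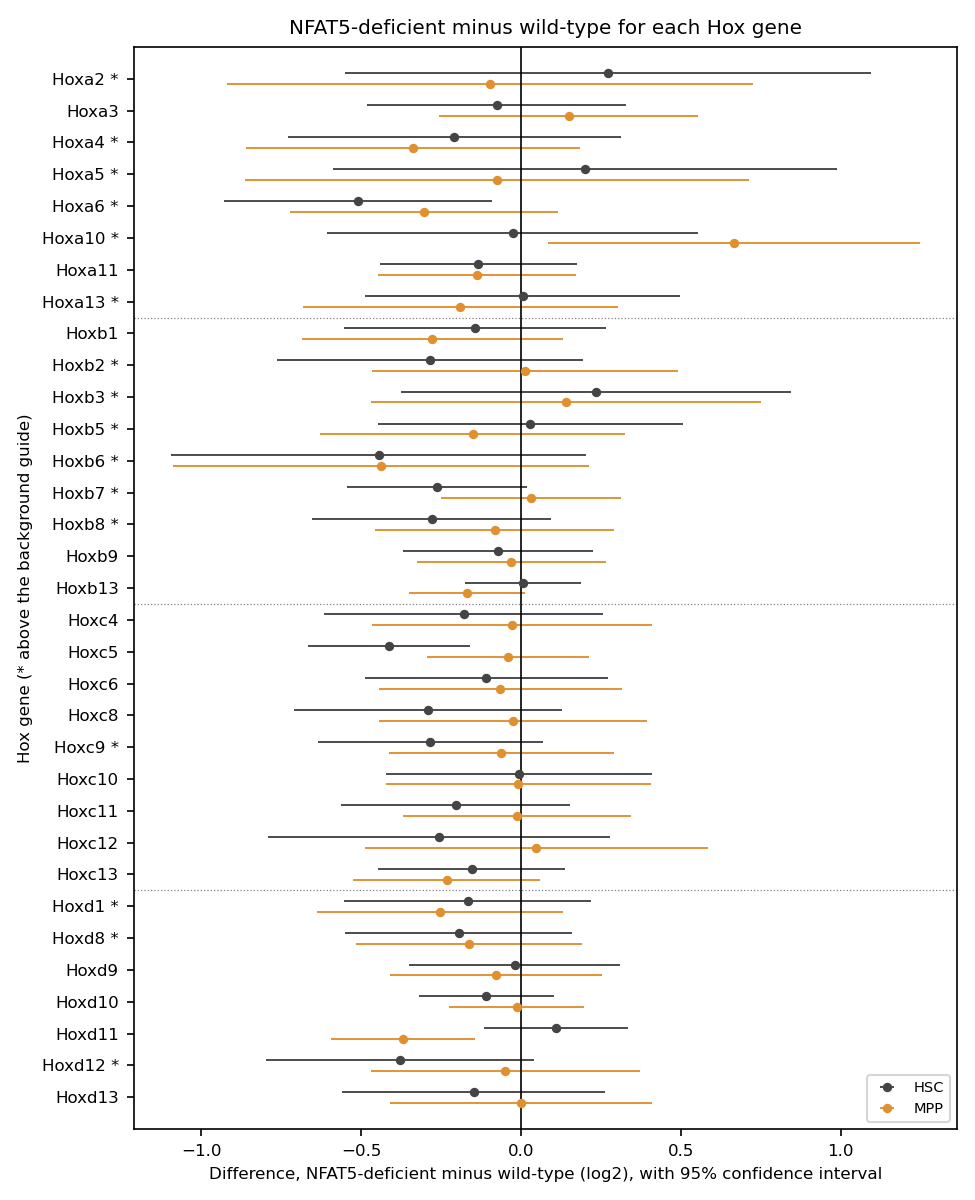
Points are the difference NFAT5-deficient minus wild-type of each Hox gene on the log2 scale, dark in HSC and orange in MPP, with the 95% confidence interval of the fit as bars. Hoxc5 and Hoxa6 in HSC and Hoxd11 in MPP have intervals wholly below 0, Hoxa10 in MPP has one wholly above 0, and none of these passed the adjusted test.

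Hoxa6, a central Hoxa gene, read 7.06, 6.64 and 6.56 in wild-type HSC and 6.26, 6.05 and 6.42 in NFAT5-deficient HSC, without overlap. In MPP it read 6.73, 6.20 and 6.41 in wild-type cells and 6.18, 6.28 and 5.96 in the NFAT5-deficient group, with overlap. The difference was -0.51 in HSC, -0.30 in MPP and -0.41 over both populations, the last with a 95% confidence interval of -0.70 to -0.11 (adjusted p = 0.662, limma). Hoxb6 had a difference of -0.44 in HSC and in MPP, with overlapping genotypes in both populations and a 95% confidence interval of -0.90 to 0.02 over both.

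Hoxc5, a central Hoxc gene below the guide, read 5.84, 5.72 and 5.64 in wild-type HSC and 5.29, 5.27 and 5.39 in NFAT5-deficient HSC. In MPP it read 5.59, 5.22 and 5.41 in wild-type cells and 5.50, 5.30 and 5.28 in the NFAT5-deficient group. Wild-type HSC lay above all 9 other arrays. The difference was -0.41 in HSC (95% confidence interval -0.67 to -0.16, adjusted p = 0.772, limma) and -0.04 in MPP.

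Hoxd11, a posterior Hoxd gene below the guide, had the smallest unadjusted p in MPP. It read 5.09, 4.83 and 4.97 in wild-type MPP and 4.56, 4.69 and 4.53 in NFAT5-deficient MPP, without overlap. In HSC it read 4.58, 4.88 and 4.80 in wild-type cells and 4.85, 4.86 and 4.88 in the NFAT5-deficient group, with overlap. The difference was -0.37 in MPP (95% confidence interval -0.59 to -0.14, adjusted p = 0.868, limma) and 0.11 in HSC. The olfactory receptor genes moved by -0.09 in the same MPP comparison.

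Hoxa10, a posterior Hoxa gene known as a regulator of early progenitors, went the other way. It read 6.97, 6.82 and 6.97 in wild-type MPP and 7.78, 6.96 and 8.02 in NFAT5-deficient MPP. Samples 64 and 76 of the NFAT5-deficient MPP group were the highest of all 12 arrays, while sample 70 lay within the wild-type range. In HSC it read 7.48, 7.18 and 6.98 in wild-type cells and 7.09, 7.27 and 7.19 in the NFAT5-deficient group. The difference was 0.67 in MPP (95% confidence interval 0.09 to 1.25, adjusted p = 0.896, limma) and -0.03 in HSC.

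Lower without overlap in NFAT5-deficient HSC were 5 members (Hoxa6, Hoxb7, Hoxc5, Hoxd8 and Hoxd12), where 6.61% of all genes were. Hoxd12 read 6.51, 6.72 and 6.55 in wild-type and 6.09, 6.17 and 6.39 in NFAT5-deficient HSC, and its MPP arrays overlapped at 6.11, 6.06 and 6.61 (wild-type) and 6.19, 6.51 and 5.94 (NFAT5-deficient). Hoxd8 read 6.63, 6.43 and 6.54 in wild-type and 6.39, 6.28 and 6.34 in NFAT5-deficient HSC, and its MPP arrays overlapped at 6.30, 5.99 and 6.64 (wild-type) and 6.13, 6.07 and 6.24 (NFAT5-deficient). These gaps were of the order of the spread within the groups.

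In MPP 4 members were lower without overlap (Hoxb1, Hoxb13, Hoxc13 and Hoxd11), where 8.84% of all genes were. All 4 had every group mean at or below the guide. Hoxb13, at the 5′ end of its cluster, read 4.63, 4.62 and 4.53 in wild-type and 4.39, 4.44 and 4.45 in NFAT5-deficient MPP, and in HSC 4.62, 4.47 and 4.57 (wild-type) and 4.53, 4.47 and 4.67 (NFAT5-deficient). Hoxc13 read 6.33, 6.28 and 6.24 in wild-type and 6.15, 5.83 and 6.18 in NFAT5-deficient MPP, and in HSC 6.47, 6.25 and 6.14 (wild-type) and 6.07, 6.20 and 6.14 (NFAT5-deficient). Both genes overlapped between the genotypes in HSC. No member was lower without overlap in both populations (0.575% of all genes). None was higher without overlap in HSC (3.55% of all genes) or in MPP (3.8%).

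By cluster, the Hoxc members were lower in NFAT5-deficient HSC in 9 of 9 cases, with differences from -0.41 to -0.01. The Hoxd members were lower in 6 of 7 cases, Hoxb in 6 of 9 and Hoxa in 5 of 8. In HSC the median was -0.20 for Hoxc, -0.15 for Hoxd, -0.14 for Hoxb and -0.05 for Hoxa. Of the 16 Hoxc and Hoxd members, 12 lay at or below the background guide.

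The genotype effect in HSC minus that in MPP was called for 0 of 33 members by limma, and for 0% of all genes. At an unadjusted p under 0.05 there were 2 members (4.19% of all genes), Hoxd11 with 0.48 and Hoxc5 with -0.37. The smallest adjusted p of a member was 0.999. The members' median interaction was -0.04, with 14 positive and 19 negative. The widest was that of Hoxa10, at -0.69 (95% confidence interval -1.51 to 0.13).

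**Figure D4:**
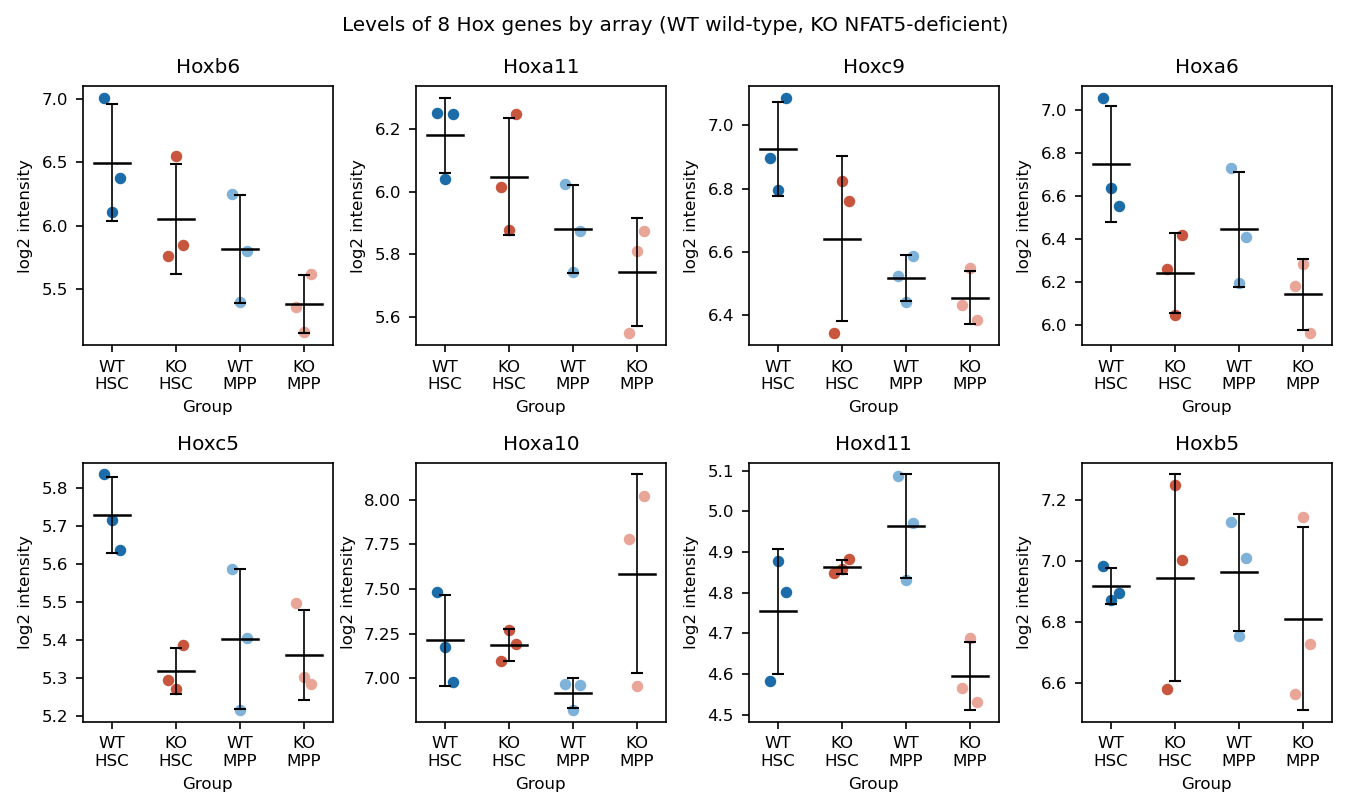
Each panel gives the log2 intensity of 1 Hox gene on the 12 arrays by group, with the group mean and standard deviation (n = 3) as lines; the vertical axes differ between panels and do not start at 0. Hoxa11 separates HSC from MPP in both genotypes, Hoxc5 is highest in wild-type HSC, and 2 of 3 NFAT5-deficient MPP arrays are high for Hoxa10.

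The arrays set limits on what difference in intensity could have been missed. The 95% confidence interval of a single difference between 2 groups reached a median of 0.41 to either side over the members, and 0.29 when both genotypes or both populations were used. In HSC the genotype interval lay within 1 log2 unit, a doubling or halving of intensity, for 31 of 33 members. Over both populations it did so for all 33. For HSC minus MPP it did so for 30 of 33 members in each genotype. These counts include the 17 members at or below the background guide. For those, a narrow interval of intensity sets no limit on a difference in RNA. These intervals are not adjusted for the number of genes, so a difference beyond them was not always called. Hoxb6 at 0.68 over both genotypes was not called, nor was Mllt3, described below, at 2.06 in wild-type cells.

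The mean of the 33 members on each array was 6.13 ± 0.15 (SD, n = 3) in wild-type HSC, 5.99 ± 0.09 in NFAT5-deficient HSC, 5.94 ± 0.13 in wild-type MPP and 5.86 ± 0.08 in NFAT5-deficient MPP. The mean of the olfactory receptor genes ran in the same order, at 5.04 ± 0.05, 4.98 ± 0.03, 4.97 ± 0.06 and 4.88 ± 0.05. The Hox mean minus the olfactory receptor mean was 1.09 ± 0.10, 1.01 ± 0.07, 0.97 ± 0.08 and 0.98 ± 0.06, and the ranges of the groups overlapped. Wild-type HSC array 66 had both the highest Hox mean (6.28) and the highest olfactory receptor mean (5.08). NFAT5-deficient MPP array 64 had both the lowest Hox mean (5.77) and the lowest olfactory receptor mean (4.83).

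**Figure D5:**
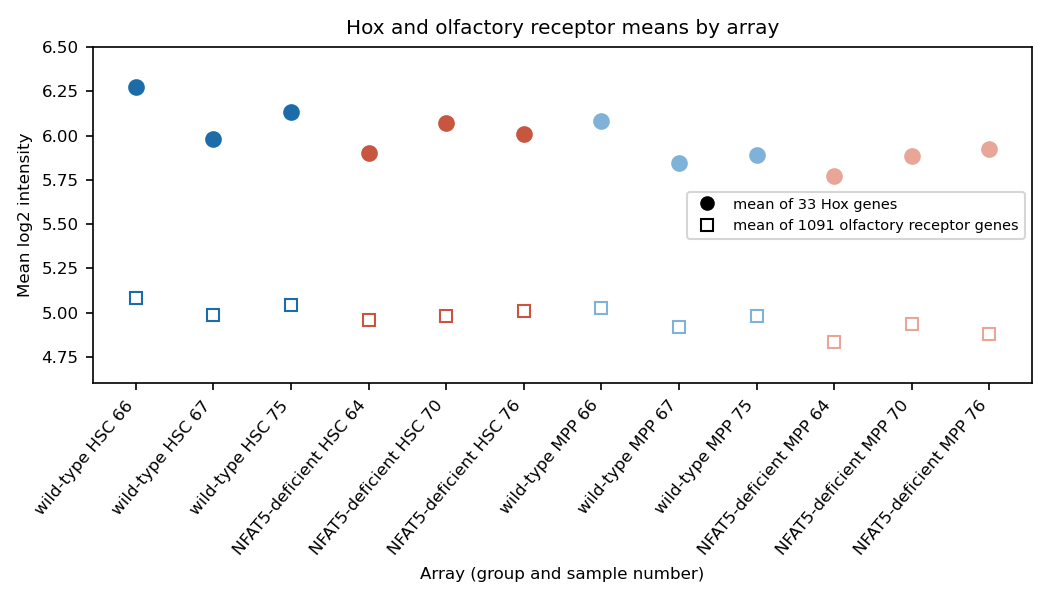
Filled points are the mean log2 intensity of the 33 Hox genes and open squares that of the 1091 olfactory receptor genes on each array; the axis does not start at 0. Both are highest on wild-type HSC array 66 and lowest on NFAT5-deficient MPP array 64.

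Markers of other cells that a sort could carry along were set beside these values. The mean of 9 neutrophil markers was 6.60 ± 0.96 (SD, n = 3) in wild-type HSC, 5.48 ± 0.06 in NFAT5-deficient HSC, 6.64 ± 0.59 in wild-type MPP and 6.37 ± 0.32 in NFAT5-deficient MPP. Neutrophil markers were high on wild-type HSC arrays 66 and 67 (6.88 and 7.38) and not on array 75 (5.52). The Hox means of arrays 66, 67 and 75 were 6.28, 5.98 and 6.13. The same sample numbers stood apart in wild-type MPP, with 6.94 and 7.02 on arrays 66 and 67 and 5.96 on array 75. The mean of 11 stromal and endothelial markers was 6.44, 6.16, 6.36 and 6.33 in the same groups. Between the genotypes in HSC, 3 of the 11 were higher and 8 lower in NFAT5-deficient cells. Their median difference was -0.04, and none was called by limma. The widest drops were in Emcn, from 8.469 in wild-type to 6.996 in NFAT5-deficient HSC, and in Pecam1, from 8.25 to 7.39. Whether the signal of Emcn and Pecam1 came from other cells was not tested. The part of the neutrophil, stromal and endothelial markers in the Hox differences was not tested either.

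Among the partners of Hox proteins, 10 of 11 TALE cofactors were measured and none was called in any comparison (limma). Meis1, the cofactor that stabilises Hox proteins on DNA in blood progenitors, read 10.94, 11.17 and 11.16 in wild-type HSC, with 10.63, 10.70 and 10.77 in wild-type MPP. In NFAT5-deficient cells it read 11.22, 10.84 and 10.85 in HSC and 10.61, 11.06 and 10.60 in MPP. The populations were apart in wild-type cells and overlapped in NFAT5-deficient cells, and the difference over both genotypes was 0.30 (95% confidence interval 0.05 to 0.55, adjusted p = 0.327, limma). Pknox1, a related homeodomain cofactor, had -0.42, and Tgif2, a TALE repressor, 0.58, neither called. The genotype effect on Meis1 over both populations was -0.03 (95% confidence interval -0.28 to 0.22).

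Among 14 of 15 measured activators of Hox clusters, Mllt3 was the only gene called. Mllt3 encodes AF9, a reader that recruits elongation factors and the DOT1L methyltransferase. It read 10.12, 10.61 and 9.89 in wild-type HSC and 10.38, 10.39 and 9.78 in NFAT5-deficient HSC. In MPP it read 7.54, 8.44 and 8.45 in wild-type cells and 8.71, 7.86 and 8.94 in the NFAT5-deficient group. Every HSC array lay above every MPP array, and the difference over both genotypes was 1.87 (95% confidence interval 1.30 to 2.44, adjusted p = 0.00847, limma). Without both wild-type HSC array 66 and NFAT5-deficient HSC array 70 it was 1.84, no longer called (adjusted p = 0.0578, limma). Within a single genotype it was not called, with 2.06 (wild-type) and 1.68 (NFAT5-deficient). The other 13 activators were not called, and the list's median was 0.03, near the 0.06 of all genes.

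Of the 17 Polycomb genes, which silence Hox clusters, 16 were measured and none was called. Over both genotypes 7 had a higher and 9 a lower mean in HSC, with a median of -0.05. The 3 with the smallest unadjusted p had lower means in HSC, while Cbx7, Pcgf2 and Phc1, named after their values were seen, had differences of 0.68, 0.64 and 0.48. Bmi1, a core subunit of Polycomb repressive complex 1, differed by -1.09 (95% confidence interval -1.84 to -0.35). Ezh2, the H3K27 methyltransferase, differed by -0.53, and Eed, its partner, by -0.62. For Bmi1 the wild-type HSC arrays read 5.72, 7.21 and 7.51, with array 66 far below the others.

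All 10 genes listed as targets of HOXA9 and MEIS1 were measured. Flt3, the receptor used to separate progenitors from stem cells, was called lower in HSC in wild-type cells, in NFAT5-deficient cells and over both genotypes. It read 5.82, 6.71 and 5.63 in wild-type HSC, with 8.38, 9.04 and 8.82 in wild-type MPP. In NFAT5-deficient cells it read 6.72, 5.46 and 5.98 in HSC, with 8.97, 9.01 and 9.30 in MPP. The difference over both genotypes was -2.87 (95% confidence interval -3.44 to -2.30, adjusted p = 0.000999, limma). That call held without any single array, whereas within wild-type cells it was lost without HSC array 66 or 75 or MPP array 67 or 75, and within NFAT5-deficient cells without HSC array 70 or 76 or MPP array 64 or 76. Both within-genotype calls were also lost with the sample number as a block, in fits of only the groups compared and without both outlying HSC arrays. Over all settings tried, the adjusted p of Flt3 (limma) reached at most 0.11 (wild-type), 0.0877 (NFAT5-deficient) and 0.0142 (both genotypes). Cd34, an antigen low on long-term stem cells of adult mice, was called lower in HSC over both genotypes, by -1.07 (95% confidence interval -1.39 to -0.75, adjusted p = 0.00751, limma). Without both outlying HSC arrays its difference was -1.02 (adjusted p = 0.0502, limma). Hoxa9 itself was not analysed here, and no target was called between the genotypes.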

How the data were processed

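RNA (300 pg per sample) was amplified with the NuGEN Ovation One-Direct system and biotin-labelled, per the labels' protocols. The authors deposited 1 table of log2 intensities, 1 per probe set and array, from 2.51 to 13.28. RMA and limma are named, with no version or role, per the submitters' processing notes, and a genome build was not given in the sources used here. Of 22142 probe sets, 19527 had 1 symbol, none had several, and 2615 (11.8%) were unnamed and left out. The probe set with the highest mean stood for each of 33 genes with more than 1, giving 19494 genes. No filter or further normalization was applied. Differences were fitted with limma 3.58.1 in R 4.3.3, with 4 group means over 12 arrays and an intensity trend. P-values were adjusted (Benjamini-Hochberg) over all genes and called under 0.05. The fit was checked on simulated data. The members, lists and rules were chosen with earlier results of these data known. Given by array are the 10 members with the smallest unadjusted p over both genotypes, the 4 smallest in each genotype comparison, and Hoxa5, Hoxa10, Hoxb3, Hoxb5, Hoxb6 and Hoxb8, and of each other list the called genes or the 3 with the smallest p. For members numbered 1 to 3, 4 to 8 and 9 to 13 the words anterior, central and posterior are used. Alternatives were filters, scalings, other fits, a block for sample number, and leaving out arrays. Same-numbered HSC and MPP arrays deviated from their group means with correlations of -0.01 to 0.06 over all genes. Over the Hox members these were 0.29, 0.25 and 0.19 (wild-type numbers 66, 67 and 75) and 0.23, 0.10 and -0.47 (NFAT5-deficient numbers 64, 70 and 76). Sequences come from RefSeq tables (GRCm38.p6), and motifs and figures from Python 3.11.15 with matplotlib 3.10.9.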

Additional observations from a re-analysis of the deposited data

How the results depend on the processing

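No Hox member was called under any alternative tried, and the smallest adjusted p of a member was 0.173 (limma, Hoxb6 over both genotypes, without wild-type MPP array 66). Leaving out single arrays kept the members' median HSC minus MPP between 0.12 and 0.21 over both genotypes, between 0.13 and 0.27 in wild-type and between 0.05 and 0.16 in NFAT5-deficient cells. The genotype median lay between -0.25 and -0.06 in HSC and between -0.13 and -0.03 in MPP. Only in MPP did a scaling turn a genotype median, to 0.04 with centring on the olfactory receptors, an alternative that, like leaving out wild-type HSC array 66 with NFAT5-deficient HSC array 70, was chosen after seeing the data. The interaction median of -0.04 ran from -0.15 to 0.02 without single arrays. Signs of single members changed under at least 1 alternative for 12 of 33 members in the HSC genotype comparison and 20 of 33 in MPP. With the sample number as a replicate block, genes called among all fell to 5 from 32 in wild-type cells, to 3 from 41 in NFAT5-deficient cells and to 52 from 119 over both genotypes, Mllt3 over both genotypes was lost (adjusted p = 0.0784, limma), as was Flt3 within each genotype, and Hox calls remained 0. Without single arrays these counts ran from 11 to 30, 5 to 32 and 71 to 112. In fits of only the groups compared they were 9 and 12 within the genotypes. With 3 arrays a group and values near background, small differences could not be detected.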

Other observations

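Of 14 protein-coding genes that flank the Hox clusters, 13 were measured and none was called by limma in any comparison. Over both genotypes 11 of 13 had a higher mean in HSC, with a median of 0.13, against 0.16 for the Hox members and 0.06 for all genes. In wild-type cells 7 of 13 did, with a median of 0.05, where 29 of 33 Hox members did, with a median of 0.19. In NFAT5-deficient cells 11 of 13 did, with a median of 0.11, against 26 of 33 Hox members and 0.11. Ttll6, beside the Hoxb cluster, had a difference of 0.23, with HSC arrays from 5.90 to 6.23 and MPP arrays from 5.69 to 5.95. Skap1, a signalling adaptor gene beside Hoxb, had 0.20. Lnpk, beside Hoxd, had -0.76, with NFAT5-deficient MPP arrays at 5.58, 5.02 and 4.85 and values from 3.33 to 5.08 on all other arrays. The highest group mean lay above the background guide for 8 of the 13 flanking genes. Ttll6, Skap1 and Lnpk lay below it in every group, so they could not be told apart from background by this measure.

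Of 18 noncoding genes of the clusters, 2 were found under their symbols. Hoxa11os, the antisense transcript of Hoxa11, had a difference of 0.18 over both genotypes, where Hoxa11 had 0.30. Hoxd3os1 had 0.04. Neither was called by limma, and all group means of both lay below the background guide.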
